A study of Mus musculus with 30 samples.

Results

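Branched-chain amino acid oxidation is represented here by 10 genes, taken as the rows of the deposited count tables that carry the symbols Bcat2, Bckdha, Bckdhb, Dbt, Bckdk, Ppm1k, Ivd, Mccc1, Hibadh and Hsd17b10. All 10 were present among the 14173 genes of the tables, and all 10 passed the filter on low counts in each comparison. The study asked whether protein restriction acts on the mouse through the sulfur amino acids it removes, using casein or soy as the protein source. Liver RNA came from 30 male C57BL6/J mice aged 6 months, 6 on each of 5 diets, with 1 library per mouse. Mice had been acclimated to a 20% protein diet for 2 weeks, were then kept on the experimental diets for 12 weeks, and were fasted for 4 h before the liver was taken. Cas-20% contained 20% casein with methionine at 0.57% and cysteine at 0.41% of diet weight, and Cas-5% contained 5% casein with methionine at 0.15% and cysteine at 0.10%. Soy-20% contained 20% soy protein with methionine and cysteine at 0.22% each, and Soy-20% + SAA was the same diet with methionine raised to 0.58% and cysteine to 0.41%. The diet named Soy-10% contained 11.5% soy protein per the labels, with methionine and cysteine at 0.13% each.

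Leucine, isoleucine and valine are first transaminated to their ketoacids, and the ketoacids are then decarboxylated by a mitochondrial enzyme complex, the committed step of their breakdown. Phosphorylation by a kinase switches this complex off, and a phosphatase switches it back on. Liver has abundant complex and little of the transaminase, so that it mainly oxidizes ketoacids released by other tissues, and the complex is known to be regulated by the protein content of the diet.

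Total counts per library ran from 7694015 to 14565542. All 8 hepatocyte markers examined were detected in the libraries, with albumin (Alb) at a mean of 48194 CPM (counts per 1000000 counts). Soy-20% + SAA livers 3 to 6 stood apart from the other 26 libraries: genes with AT-rich 3′ ends were counted low in them, with a slope of 0.0625 to 0.211 log2 units per 10% GC against -0.0637 to 0.0247 elsewhere. Results that rest on Soy-20% + SAA are therefore also given without those 4 livers, which leaves 2 livers of that diet. Summed counts of 10 pancreatic acinar genes reached 888 CPM in Soy-10% liver 4 against at most 55.7 in any other liver.

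Promoter sequence is shown for 3 members, Ivd and Hsd17b10 because their levels changed the most between casein diets, and Bckdk because its log2 fold change had the opposite sign. The windows are the 250 bases before the annotated start, from RefSeq on GRCm38.p6, and 9 of the 10 members had an entry. They are Ivd at chr2:118861744-118861993 on the plus strand, Hsd17b10 at chrX:152001646-152001895 on the plus strand, and Bckdk at chr7:127903823-127904072 on the plus strand. Capitals mark CCAAT, or ATTGG where the motif lies on the opposite strand.
Ivd: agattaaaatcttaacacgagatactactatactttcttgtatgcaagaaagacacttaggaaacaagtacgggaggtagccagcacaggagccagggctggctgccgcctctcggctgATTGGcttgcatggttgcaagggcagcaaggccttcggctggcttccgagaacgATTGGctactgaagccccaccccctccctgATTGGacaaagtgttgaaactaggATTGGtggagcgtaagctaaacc
Hsd17b10: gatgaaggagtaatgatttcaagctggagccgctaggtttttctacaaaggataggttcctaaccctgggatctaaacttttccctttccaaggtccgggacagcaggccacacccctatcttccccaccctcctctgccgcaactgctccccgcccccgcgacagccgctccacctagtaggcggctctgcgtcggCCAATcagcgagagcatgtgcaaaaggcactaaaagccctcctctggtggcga
Bckdk: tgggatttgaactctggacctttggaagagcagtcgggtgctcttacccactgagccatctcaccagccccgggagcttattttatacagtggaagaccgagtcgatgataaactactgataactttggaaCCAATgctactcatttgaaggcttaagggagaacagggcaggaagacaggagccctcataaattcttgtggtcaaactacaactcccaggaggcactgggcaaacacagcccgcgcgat
The Ivd window held 4 copies of CCAAT, and the Hsd17b10 and Bckdk windows held 1 each. At least 1 copy stood in 7 of 11 member windows and in 33.8% of all 32851 RefSeq windows of this length, and 4 or more stood in 0.84% of all windows. CCAAT was chosen after the member windows had been read, so the counts are a description. The letters TGATGNAA, an ATF4 response element searched on both strands, stood in 0 of the 11 member windows and in 3.45% of all windows. CACCC, the core bound by KLF factors, stood in 7 of the 11 on either strand, against 52% of all windows, and shared letters with CCAAT in 0 of them.

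Casein restriction lowered most of these genes. Of the 10 members, 7 were lower on Cas-5% than on Cas-20% and 0 were higher at an adjusted p of 0.05 or less in edgeR's quasi-likelihood test with Benjamini-Hochberg adjustment, on 6 livers per diet. In the same comparison 24.9% of 12076 tested genes passed, 13.3% in the downward direction. The median log2 fold change was -0.54 over the members and 0.02 over all tested genes. In all 7 the highest Cas-5% liver lay below the lowest Cas-20% liver, which held for 7.73% of tested genes. Fewer cells of a type and less RNA per cell cannot be told apart in whole liver. Summed cell type markers also moved between these diets: the 8 stellate and endothelial genes summed to 536 to 687 CPM on Cas-5% and 395 to 517 on Cas-20%, and the 8 hepatocyte genes to 81810 to 98359 and 68108 to 76378. Neither pair of ranges overlapped, and their part in the results was not tested. The largest terms in these sums were Dcn, with a mean of 291 CPM over all livers, and Alb, with 48194. Directions of single markers are not given here. The summed immune (8 of 9 genes in the table), adipocyte (2 of 6) and red blood cell (5 of 5) markers overlapped between these diets.

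**Figure D1:**
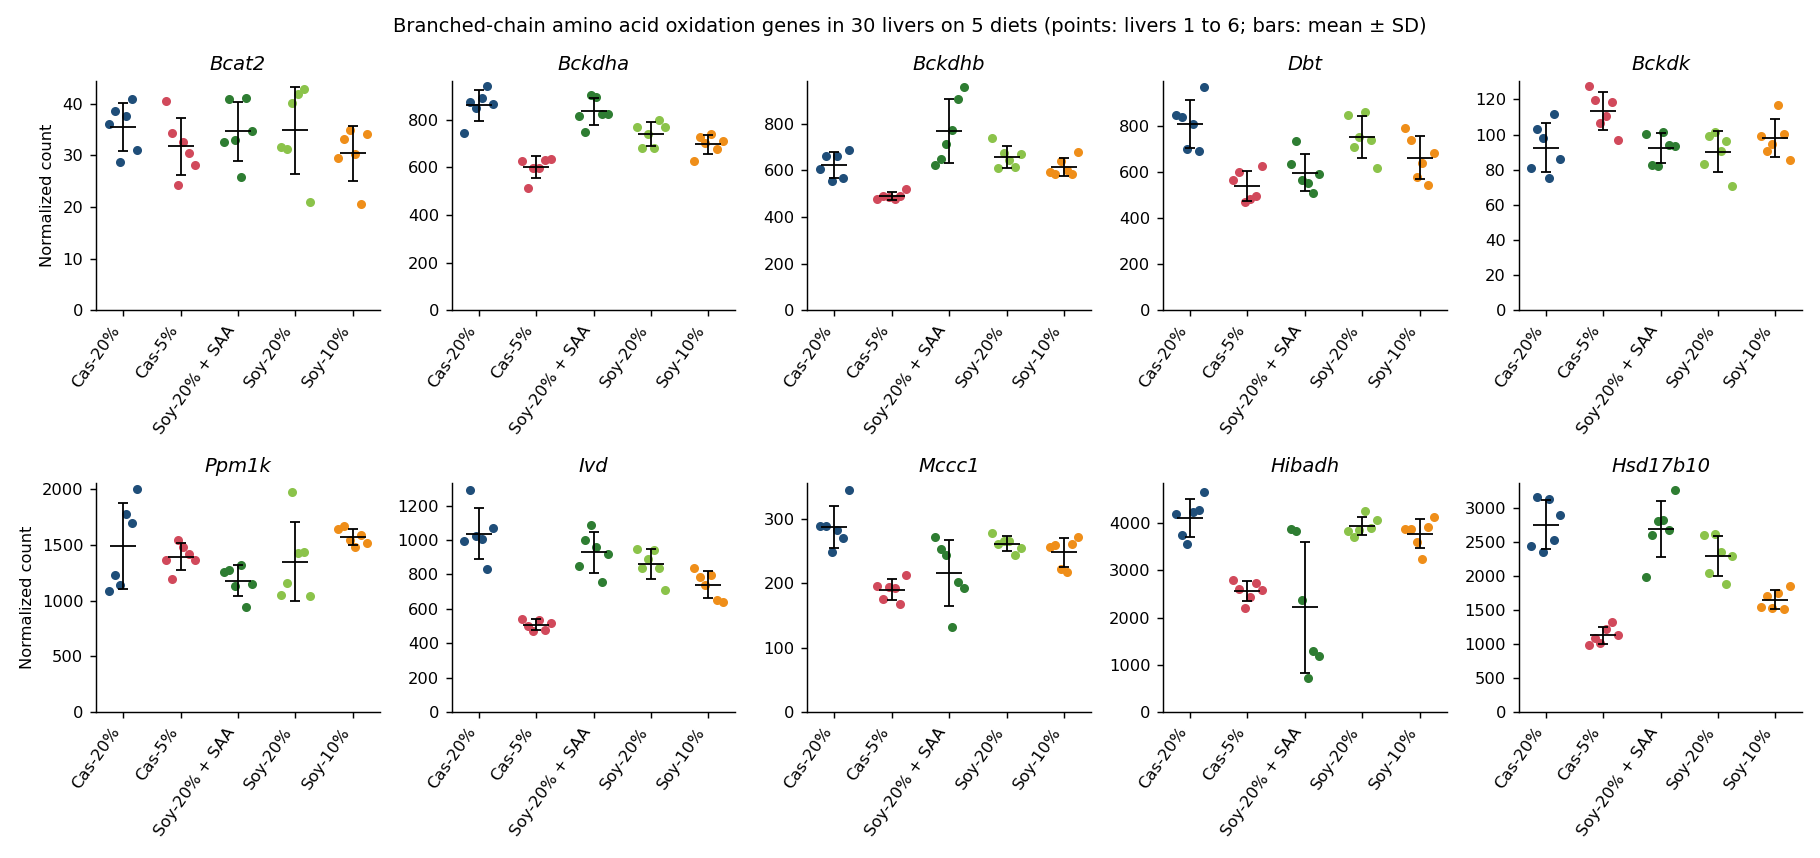
Normalized counts (linear axis from 0) of the 10 genes in each of 30 livers, grouped by diet on the horizontal axis, with points for livers 1 to 6 and black bars for the mean ± SD. Hsd17b10 steps down from Soy-20% to Soy-10% to Cas-5% with no overlap, and Hibadh splits within Soy-20% + SAA into livers 1 and 2, at 3865 and 3837, and livers 3 to 6, from 717 to 2369.

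The transaminase Bcat2 (chr7:45570153-45589711, plus strand of GRCm38), which makes the ketoacids, was the lowest-counted member, and its counts spread widely. Its normalized count, the read count divided by the size factor of the library, ran from 28.6 to 40.8 with a median of 36.8 on Cas-20% and from 24.3 to 40.6 with a median of 31.6 on Cas-5%. These ranges overlapped almost wholly. The log2 fold change was -0.15 ± 0.15 (SE, edgeR adjusted p = 0.51), and over all 5 diets the quasi-likelihood test on 4 degrees of freedom gave an adjusted p of 0.69. Medians on the soy diets lay between 31.7 and 35.9. Of 8 skeletal muscle markers, a tissue rich in this enzyme, 5 were in the table, and they summed to 0.434 to 1.18 CPM on Cas-20% and 3.81 to 8.71 CPM on Cas-5%, ranges that did not overlap. Their part in the Bcat2 values was not tested.

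The 3 members that encode subunits of the ketoacid dehydrogenase complex were each lower on Cas-5%, while its further subunit Dld, which other dehydrogenase complexes share, stood at -0.21 (SE 0.08, edgeR adjusted p = 0.075) and did not pass. Bckdha (chr7:25629946-25658981, minus strand), the alpha subunit of the decarboxylase, had a normalized count of 744 to 940 with a median of 870 on Cas-20% and of 513 to 636 with a median of 611 on Cas-5%. It fell by 0.51 on the log2 scale (SE 0.07, edgeR adjusted p = 7.2e-05) and the diets did not overlap. Bckdhb (chr9:83925145-84124240, plus strand), the beta subunit, had a normalized count of 556 to 689 with a median of 632 on Cas-20%. On Cas-5% its 6 livers lay within a narrow band from 478 to 519 with a median of 487. It fell by 0.33 (SE 0.07, edgeR adjusted p = 0.0014), the smallest of the 7 reductions. Dbt (chr3:116513070-116549981, plus strand), the core that carries the acyl group, had a normalized count of 690 to 970 with a median of 823 on Cas-20% and of 469 to 628 with a median of 531 on Cas-5%. The log2 change of Dbt was -0.57 (SE 0.09, edgeR adjusted p = 3.0e-04).

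Neither the kinase nor the phosphatase that set the activity of the complex passed the test between casein diets. Bckdk (chr7:127904082-127910221, plus strand), the inhibitory kinase, had a normalized count of 75.3 to 112 with a median of 92.3 on Cas-20% and of 96.8 to 128 with a median of 115 on Cas-5%. It was the only member with a positive log2 fold change on casein restriction, 0.30 ± 0.11 (SE), but the livers overlapped and the edgeR adjusted p was 0.053. The call sits at the threshold: Bckdk passed in 1 fit over 30 livers (adjusted p = 0.032), with a minimum of 10 counts in every liver (0.048), and without Cas-20% liver 2 (0.048), Cas-20% liver 5 (0.028) or Cas-5% liver 6 (0.036). It did not pass in the other alternatives listed below or with any other single liver left out. Medians on the soy diets lay between 93.7 and 97.2, and the highest soy liver, at 117, was the Soy-10% liver that carried acinar RNA. Over the 5 diets Bckdk differed with an edgeR adjusted p of 0.042.

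Ppm1k (chr6:57506502-57535468, minus strand), the phosphatase that activates the complex, spread more within diets than between the casein diets. It had a normalized count of 1085 to 2002 with a median of 1461 on Cas-20%, and of 1193 to 1543 with a median of 1388 on Cas-5%, inside the Cas-20% range. The log2 fold change was -0.08 ± 0.13 (SE, edgeR adjusted p = 0.71). The log2 ratio of Bckdk to Ppm1k counts averaged -3.98 ± 0.46 (SD, n = 6) on Cas-20% and -3.62 ± 0.22 on Cas-5%, with overlapping ranges. The ratio averaged -3.87 ± 0.26 on Soy-20%, -3.67 ± 0.21 on Soy-20% + SAA and -4.01 ± 0.19 on Soy-10%. Only differences of the ratio between diets are read here, not its level.

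Both leucine enzymes fell on Cas-5%. Ivd (chr2:118861954-118882909, plus strand), isovaleryl-CoA dehydrogenase, had a normalized count of 832 to 1292 with a median of 1015 on Cas-20% and of 472 to 543 with a median of 511 on Cas-5%. The log2 change of -1.01 (SE 0.09, edgeR adjusted p = 4.1e-07) is a level that decreased by 50.4%. Mccc1 (chr3:35959312-36000678, minus strand), the biotin-carrying subunit of methylcrotonyl-CoA carboxylase, had a normalized count of 248 to 346 with a median of 286 on Cas-20% and of 168 to 213 with a median of 194 on Cas-5%. It fell by 0.58 (SE 0.09, edgeR adjusted p = 9.3e-05), again with no overlap. The antisense gene Gm15952 overlaps Mccc1 with a mean of 14.6 counts, as B3gnt8 does Bckdha on the opposite strand (8.43) and Gm44434 does Hibadh on the same strand (3.80), and whether counting used strand is not given in the sources used here.

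Valine and isoleucine enzymes also fell. Hibadh (chr6:52546228-52640389, minus strand), 3-hydroxyisobutyrate dehydrogenase of the valine branch, had a normalized count of 3552 to 4655 with a median of 4218 on Cas-20% and of 2210 to 2785 with a median of 2594 on Cas-5%. It fell by 0.67 (SE 0.08, edgeR adjusted p = 9.7e-06). Hsd17b10 (chrX:152001845-152004442, plus strand), the dehydrogenase of the isoleucine branch that is also a subunit of mitochondrial RNase P, had a normalized count of 2357 to 3164 with a median of 2712 on Cas-20%. On Cas-5% it lay between 987 and 1321 with a median of 1109, below every control liver. Its log2 change of -1.27 (SE 0.09, edgeR adjusted p = 8.4e-08) was the largest of the 10, a level that decreased by 58.6%. Removing any single liver kept it between -1.32 and -1.23.

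Fewer members passed on soy restriction, and the number depended on the control diet. Against Soy-20%, 1 of the 10 members passed, in a comparison where 0.866% of 11897 genes did (0.546% in the downward direction), and 8 of 10 log2 fold changes were below 0 against 50.1% of all genes. The gene was Hsd17b10, with a normalized count of 1881 to 2614 and a median of 2324 on Soy-20%, and of 1519 to 1855 and a median of 1623 on Soy-10%. The ranges did not overlap, and the log2 change was -0.48 (SE 0.08, edgeR adjusted p = 0.011). Ivd came next, with an unadjusted p of 0.017 in edgeR that did not survive adjustment (0.26) and a log2 fold change of -0.22 ± 0.08 (SE). Hibadh lay at 3697 to 4248 on Soy-20% and at 3243 to 4131 on Soy-10%, a log2 fold change of -0.06 ± 0.06 (SE).

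Against Soy-20% + SAA, 4 members were lower on Soy-10% and 1 was higher, where 17.0% of 11983 genes passed, 8.47% lower and 8.51% higher. Hsd17b10 ran from 1982 to 3256 with a median of 2743 on Soy-20% + SAA, above every Soy-10% liver, and its log2 change was -0.71 (SE 0.10, edgeR adjusted p = 7.8e-04). Bckdha changed by -0.26 (adjusted p = 0.016), Bckdhb by -0.33 (0.041) and Ivd by -0.33 (0.031) on the log2 scale in edgeR. Ppm1k rose by 0.41 (SE 0.08, edgeR adjusted p = 0.0046), from 940 to 1319 on Soy-20% + SAA to 1476 to 1665 on Soy-10%, with no overlap. Without Soy-20% + SAA livers 3 to 6, Hsd17b10 was the only member that passed, at -0.48 (edgeR adjusted p = 0.033), where 2.54% of 12483 genes passed. Bckdha, Bckdhb, Ivd and Ppm1k then stood at -0.18, -0.06, -0.33 and 0.31. With the GC slope of each library as a covariate Hsd17b10 was again the only one, at -0.51 (edgeR adjusted p = 0.012), among 379 genes that passed in all. Leaving out Soy-20% + SAA liver 3, 4 or 6, or Soy-10% liver 3 or 5, left 3 members past the threshold. In these fits 1222 to 1502 genes passed in all, against 2035 with all livers. The Soy-10% livers are shared between both soy comparisons.

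**Figure D2:**
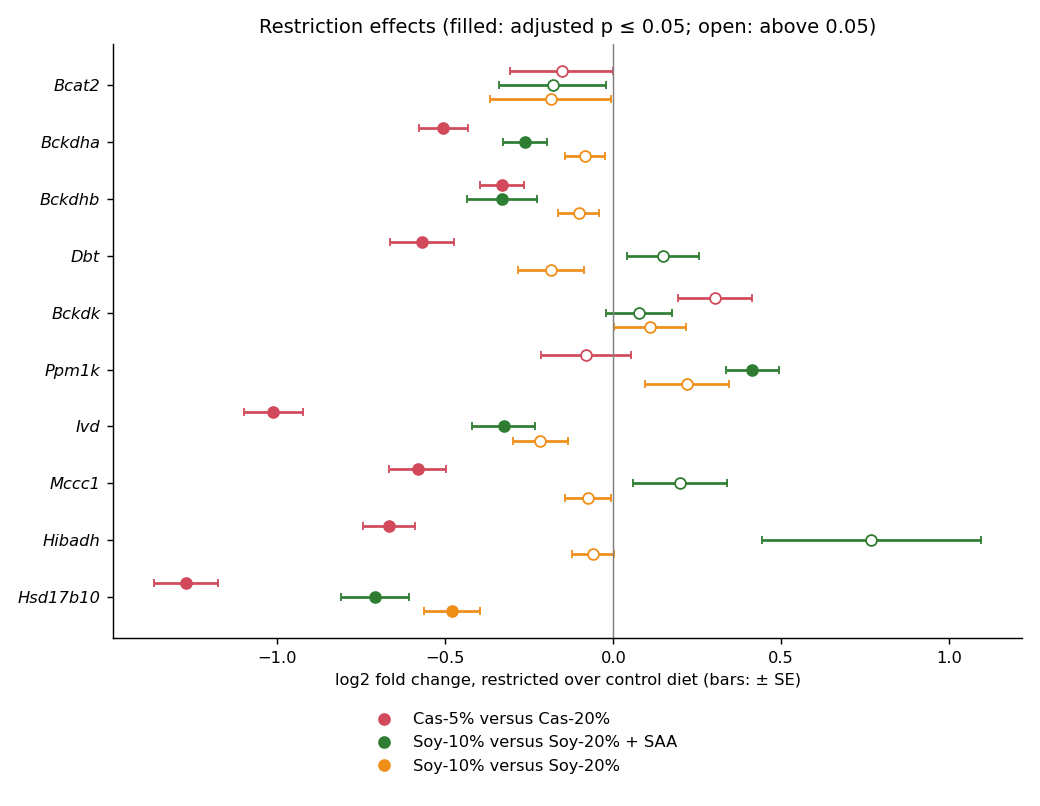
Log2 fold change (horizontal axis) of each gene in edgeR for Cas-5% over Cas-20%, Soy-10% over Soy-20% + SAA and Soy-10% over Soy-20%, 6 livers per diet, with bars of ± SE and filled points for an adjusted p of 0.05 or less. Hsd17b10 alone is filled in all 3 comparisons, and the Hibadh point for Soy-20% + SAA stands at 0.77 with the widest bar.

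Hibadh had the largest spread within 1 diet. On Soy-20% + SAA its normalized count was 3865 and 3837 in livers 1 and 2, and 2369, 717, 1303 and 1192 in livers 3 to 6. The first pair lay inside the Soy-20% range, and the other 4 lay below every Soy-20% liver. The log2 difference of livers 3 to 6 from livers 1 and 2 was -1.60 for Hibadh, -0.48 for Mccc1 and -0.31 for Dbt, whose 3′ ends (last 200 bases) hold 30%, 38% and 24.5% GC. It was 0.34 for Hsd17b10 and 0.14 for Bckdha, at 48% and 58.5% GC, but 0.39 for Bckdhb, at 39% GC. The other members did not order by GC content: Ppm1k, at 29% GC, differed by -0.17, Ivd, at 34.5%, by 0.001, Bckdk, at 47.5%, by 0.02 and Bcat2, at 53%, by -0.13. Soy-10% therefore stood above Soy-20% + SAA for Hibadh by 0.77 ± 0.33 (SE, edgeR adjusted p = 0.11) with all livers and at -0.04 without livers 3 to 6.

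**Figure D3:**
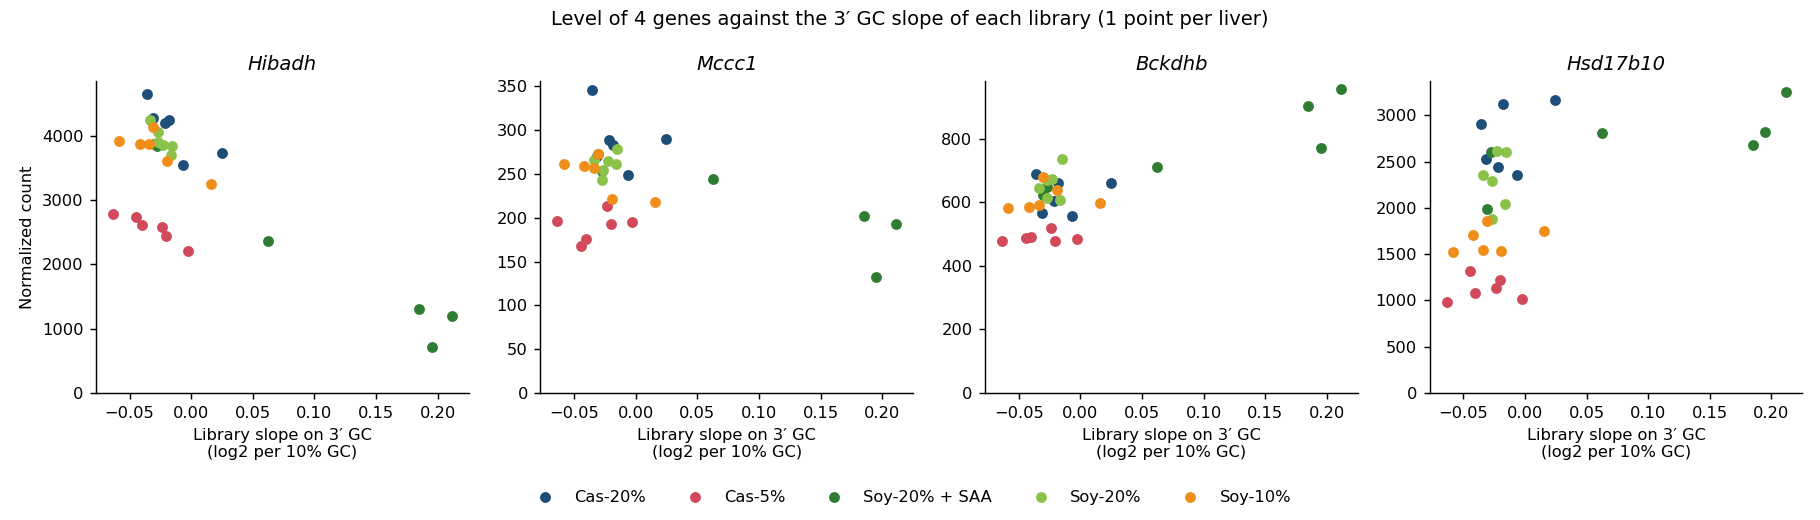
Normalized counts (vertical axis, from 0) of Hibadh, Mccc1, Bckdhb and Hsd17b10 against the slope of each library on 3′ GC content (log2 units per 10% GC), 1 point per liver coloured by diet. The 4 Soy-20% + SAA livers with slopes of 0.0625 to 0.211 hold Hibadh counts of 717 to 2369 and Bckdhb counts of 712 to 958.

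The casein and soy effects differed for 5 members. The interaction term over 24 livers, the casein effect minus the soy effect against Soy-20% + SAA, was negative and passed for Dbt, Ivd, Mccc1, Hibadh and Hsd17b10, where 8.69% of 12532 genes passed, 5.49% with a negative value. Ivd differed by -0.69 (SE 0.13, edgeR adjusted p = 0.0030) and Hsd17b10 by -0.57 (SE 0.14, 0.015). Without Soy-20% + SAA livers 3 to 6 the count was 3 (2.27% of all genes): Ivd stood at -0.69, Hibadh at -0.64 in place of -1.44, and Hsd17b10 at -0.80, and Dbt and Mccc1 no longer passed. With Soy-20% as the soy control, 5 members again passed, all negative, where 5.99% of 12450 genes did, 3.57% with a negative value. They were Bckdha at -0.43 (SE 0.09), Ivd at -0.80 (SE 0.12), Mccc1 at -0.51 (SE 0.11), Hibadh at -0.61 (SE 0.10) and Hsd17b10 at -0.80 (SE 0.13). In 1 fit over all 30 livers 3 of these 5 passed, and Mccc1 (edgeR adjusted p = 0.057) and Hibadh (0.34) did not, with log2 differences of -0.51 and -0.61 as before. Both interaction tests share the casein livers and the Soy-10% livers. Casein was cut from 20% to 5% and soy from 20% to 11.5%, so protein source and depth of restriction cannot be told apart. With Soy-20% as control, methionine fell from 0.22% to 0.13% on soy, against 0.57% to 0.15% on casein.

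**Figure D4:**
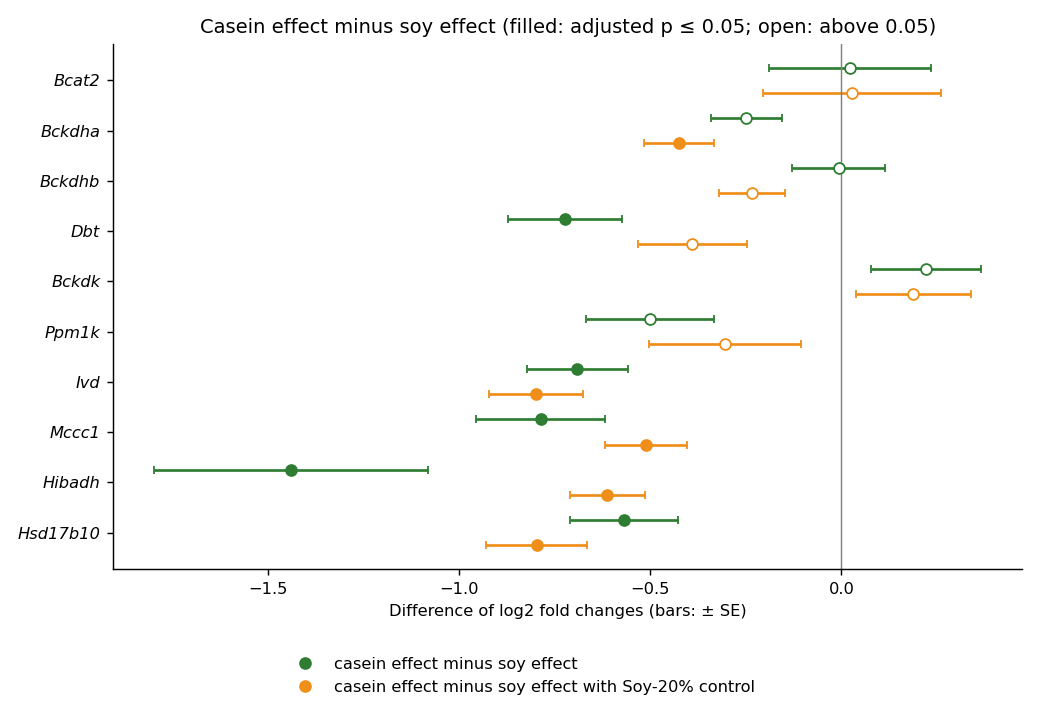
Difference between the casein and the soy effect on the log2 scale (horizontal axis) for each gene, with Soy-20% + SAA or Soy-20% as the soy control (24 livers each), bars of ± SE and filled points for an edgeR adjusted p of 0.05 or less. Points left of 0 mean a more negative casein effect, and Ivd, Mccc1, Hibadh and Hsd17b10 are filled with both controls.

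The restricted diets were also set side by side. Cas-5% and Soy-10% hold similar methionine, 0.15% and 0.13%, but differ in both protein source and protein content, which cannot be told apart here. On Cas-5%, 5 members were lower than on Soy-10% and 0 were higher, with no overlap between livers for any of the 5, where 10.7% of 12041 genes passed, 6.14% were lower and passed, and 4.09% were lower with no overlap. Hsd17b10 changed by -0.53 (SE 0.08, edgeR adjusted p = 2.7e-04), Ivd by -0.52 (SE 0.07, 1.6e-04) and Hibadh by -0.54 (SE 0.07, 9.1e-05). Bckdhb and Mccc1 were lower by smaller amounts, -0.30 (edgeR adjusted p = 0.0018) and -0.37 (0.0070). In 1 fit over 30 livers Hibadh stood at -0.55 and no longer passed (edgeR adjusted p = 0.16). Between these diets too the stellate and endothelial markers (536 to 687 CPM on Cas-5%, 457 to 512 on Soy-10%) and the skeletal muscle markers (3.81 to 8.71 and 1.45 to 3.68) did not overlap, and their part was not tested.

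Few members differed between the control diets. Between Cas-20% and Soy-20%, 0 members passed in edgeR, where 2.69% of 11875 genes did, and 3 had an unadjusted p under 0.05 (18.3% of all genes), with Cas-20% higher by 0.22 for Bckdha, 0.27 for Ivd and 0.26 for Hsd17b10. DESeq2 passed 1 member, Bckdha (adjusted p = 0.0496), among 608 genes in all. Between Soy-20% and Soy-20% + SAA, 0 members passed in edgeR where 0.00838% of 11932 genes did, and 3 had an unadjusted p under 0.05 (24.2% of all genes). Here DESeq2 passed 1 member, Dbt (adjusted p = 0.036), among 885 genes in all. With livers 3 to 6 left out, Dbt stood at 0.14 (edgeR adjusted p = 0.87) and Hibadh at 0.03 (0.97) on the log2 scale. Between Cas-20% and Soy-20% + SAA, 1 member passed, where 2.43% of 11988 genes did, 1.42% higher on Cas-20%: Dbt was higher on Cas-20% by 0.44 (SE 0.10, edgeR adjusted p = 0.044). Without Soy-20% + SAA livers 3 to 6 the difference was 0.23 and did not pass (0.73).

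Over the 5 diets 8 of 10 members differed in edgeR's test on 4 degrees of freedom, where 43.4% of 12561 genes did. By mean level Hsd17b10 stood in the order Cas-20%, Soy-20% + SAA, Soy-20%, Soy-10%, Cas-5%, and the last 2 steps showed no overlap between livers. For Ivd, Bckdhb and Hibadh the step from Soy-10% to Cas-5% had no overlap. All other neighbouring diets overlapped for every member. Across 26 livers without Soy-20% + SAA livers 3 to 6, pairwise Pearson correlations among the 7 genes lower on Cas-5% ran from 0.583 to 0.913 with a median of 0.819, and those of Bckdk with the 7 from -0.726 to -0.454. With all 30 livers the first range was -0.345 to 0.891 and that of Bckdk -0.598 to -0.242. The 7 genes were picked by their fall on Cas-5% in livers that are also used here. These correlations share libraries and the diet differences. The genes most like Bckdk over 30 livers, among 12032 compared, were Rdh16f2, Renbp and Polr1a (Pearson r of 0.735 each), and those most like Ppm1k were Gna12 (0.825), Hlf (0.779) and Pbld2 (0.778).

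Other genes of the pathway were also lower on Cas-5%. Of 21 further genes of branched-chain amino acid breakdown 20 were in the table, and 11 were lower and 0 higher on Cas-5% than on Cas-20%, against 13.3% and 11.6% of all genes. Pcca, the biotin-carrying subunit of propionyl-CoA carboxylase, changed by -0.69 (SE 0.07, edgeR adjusted p = 3.1e-06). Mmut, the methylmalonyl-CoA mutase that follows it, changed by -0.58 (SE 0.06, 5.5e-06), and Acadsb, the dehydrogenase of the isoleucine branch, by -0.68 (SE 0.08, 2.1e-05). The other 8 were Mccc2, Echs1, Pccb, Mmaa, Aldh6a1, Mmab, Mcee and Hibch, and the 9 that did not pass had log2 fold changes from -0.27 to 0.20. Against Soy-20%, 0 of the 20 passed on Soy-10% in edgeR (0.866% of all genes), and 2 had an unadjusted p under 0.05 (12.3% of all genes). Against Soy-20% + SAA, 7 were lower, with Pccb at -0.32 (adjusted p = 0.0060), and 2 were higher, among them Acat1 at 0.83 (0.019), against 8.47% and 8.51% of all genes. In edgeR 0 of the 20 passed with the GC slope as a covariate (379 genes in all) or without Soy-20% + SAA livers 3 to 6 (2.54% of all genes). Without those livers Pccb stood at -0.20 and Acat1 at 0.19. Between Cas-5% and Soy-10%, 10 were lower (6.14% of all genes) and 0 higher on Cas-5%, with Pcca at -0.46 (adjusted p = 1.2e-04), Acadsb at -0.45 (3.1e-04) and Aldh6a1, the valine-branch semialdehyde dehydrogenase, at -0.40 (4.9e-04).

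**Figure D5:**
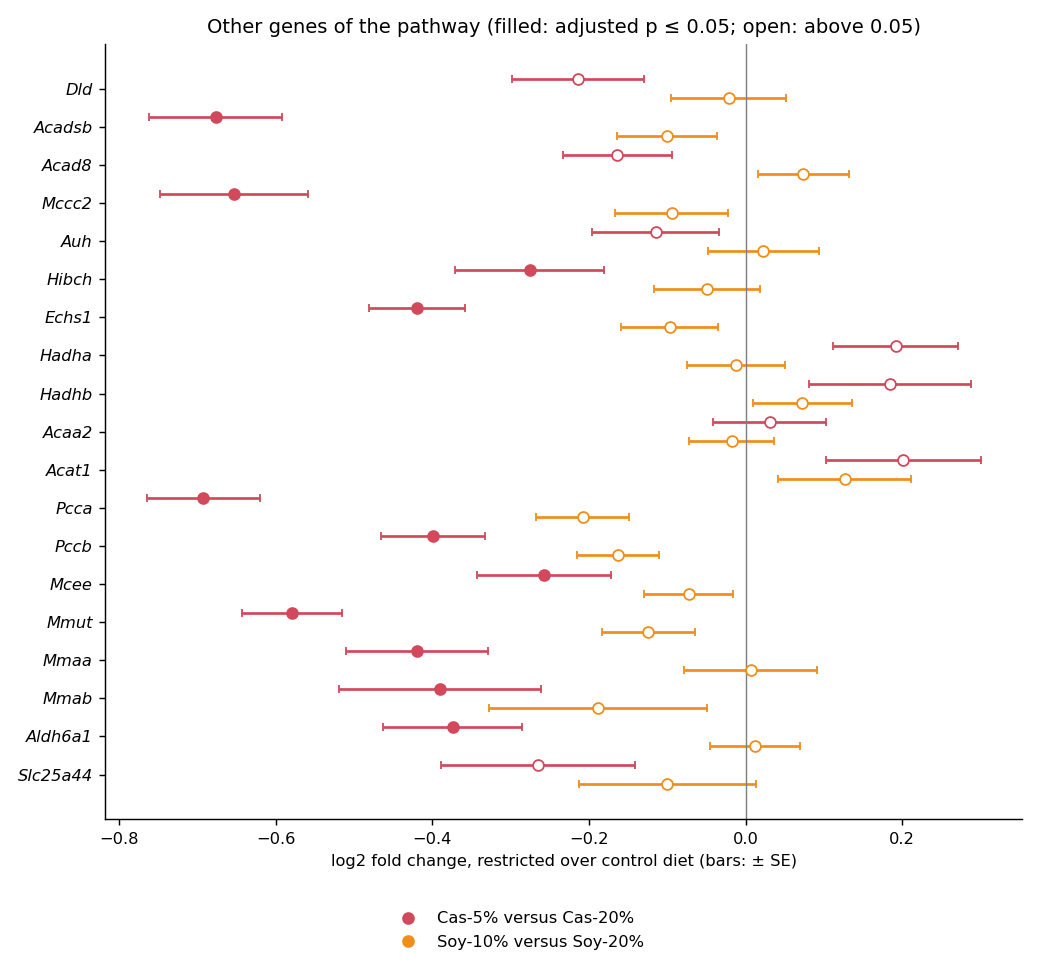
Log2 fold change (horizontal axis) of further pathway genes for Cas-5% over Cas-20% and Soy-10% over Soy-20% in edgeR, 6 livers per diet, with bars of ± SE and filled points for an adjusted p of 0.05 or less. The 11 filled casein points all lie left of 0, with Pcca furthest at -0.69, and no soy point is filled.

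The casein effect minus the soy effect against Soy-20% + SAA was negative for 6 of the 20 (5.49% of all genes) and positive for 1 (3.20%). Mccc2, the partner of Mccc1, differed by -0.72 (edgeR adjusted p = 0.0014), Mmut by -0.73 (0.0035) and Hadha by 0.38 (0.024), and 3 of the 20 passed with the GC slope as a covariate. Leaving out Soy-20% + SAA livers 3 to 6 also left 3 (2.27% of all genes), and Mccc2 stood at -0.62 (adjusted p = 0.022), Mmut at -0.38 (0.047) and Hadha at 0.25 (0.30). With Soy-20% as control 7 were negative (3.57% of all genes) and 0 positive, with Mmut at -0.46 (adjusted p = 9.2e-04), Acadsb at -0.58 (0.0011) and Pcca at -0.49 (0.0013). Between Cas-20% and Soy-20% + SAA, Mccc2 was higher on Cas-20% by 0.38 (edgeR adjusted p = 0.044), and stood at 0.28 (0.64) without livers 3 to 6. Of 3 regulators known to act on these genes, Klf15, a transcription factor of amino acid catabolism, fell by 0.38 (SE 0.07, adjusted p = 4.8e-04) on Cas-5%. Klf15 was higher on Cas-20% than on Soy-20% by 0.48 (adjusted p = 0.0030) and than on Soy-20% + SAA by 0.81 (0.011), or 0.53 (0.25) without livers 3 to 6. Ppara, the fatty acid receptor, and Mlxipl, the carbohydrate response factor, were lower on Soy-10% than on Soy-20% + SAA, with log2 fold changes of -0.52 (adjusted p = 0.0073) and -0.39 (0.0092). Without livers 3 to 6 they stood at -0.37 (edgeR adjusted p = 0.19) and -0.24 (0.22). In the interaction with Soy-20% + SAA as soy control the log2 difference was -0.77 for Klf15 (edgeR adjusted p = 0.0035) and 0.58 for Mlxipl (0.018), which became -0.49 (0.069) and 0.43 (0.21) without those livers. With Soy-20% as soy control the interaction stood at -0.44 for Klf15 (edgeR adjusted p = 0.022) and 0.38 for Mlxipl (0.13). Mlxipl was higher on Cas-5% than on Soy-10% by 0.26 (edgeR adjusted p = 0.049). Between those diets Klf15 stood at 0.05 (edgeR adjusted p = 0.77).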

How the data were processed

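Liver RNA of 30 mice, 6 per diet, was sequenced after QuantSeq 3′ library preparation, which reads the ends of transcripts, and each mouse gave 1 library. The first deposited table holds raw counts per gene, which the authors made with the Bluebee QuantSeq pipeline on GRCm38. The second table holds the counts as a normalized signal, for which the authors divided each library by its DESeq2 size factor, between 0.759 and 1.30. Versions in the submitters' processing notes are R 4.0.3 and DESeq2 1.30. The aligner, annotation release and strand setting are not given in the sources used here.

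Counts were tested in R 4.3.3 with edgeR 4.0.16 (filterByExpr, TMM, quasi-likelihood F test, Benjamini-Hochberg over all genes tested, threshold 0.05) in fits of the diets compared. Interactions used 24 livers, and the test for any difference used 30. The same scripts were tested on simulated data. Symbols lacking in the tables, coordinates, exons and 3′ GC (last 200 bases of the longest coding transcript) came from GENCODE M21. The GC slope of a library was fitted over 11967 genes with a mean of at least 10 counts. No library pair was a duplicate. Library totals of 7694015 to 14565542 leave genes with few counts, such as Bcat2, imprecise.

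All members were named. Of the other pathway genes and regulators, up to 3 per comparison and direction were named, those with the smallest adjusted p. Further pathway genes were named, and further comparisons of the regulators given, after their values were seen. A gene of that list is counted but not reported here by name. The genes most like Bckdk and Ppm1k are the 3 with the highest correlation of log2 CPM. The members and lists were chosen with earlier results of these data known. Alternatives were DESeq2 1.42.0, its size factors, no filter, a minimum of 10 counts in every liver, 1 fit over 30 livers, a replicate block, a GC slope covariate, Soy-20% + SAA without livers 3 to 6, a log2 fold change of at least 1, and each liver left out.

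The labels give 11.5% soy for the diet called Soy-10% and 0.58% methionine for Soy-20% + SAA, and these are the values used.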

Additional observations from a re-analysis of the deposited data

Results flagged for a closer look

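In 2 of 50 member and diet groups examined, 1 liver stood apart from the other 5 by Dixon's ratio at its 95% critical value, and chance gives about 1 in 20. Bckdha in Cas-5% liver 2 had a normalized count of 513 against a diet median of 611 (ratio 0.678). Bckdhb in Cas-5% liver 6 had 519 against a median of 487 (ratio 0.665). Both genes still passed as lower on Cas-5% than on Cas-20% when any single liver was left out.

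The casein and soy effects differed by a test of the difference itself, in which protein source and depth of restriction cannot be told apart. Against Soy-20% + SAA, the log2 difference was -0.72 for Dbt (edgeR adjusted p = 0.0050), -0.69 for Ivd (0.0030), -0.79 for Mccc1 (0.0067), -1.44 for Hibadh (0.015) and -0.57 for Hsd17b10 (0.015). Without Soy-20% + SAA livers 3 to 6, Dbt was at -0.52 (0.12) and Mccc1 at -0.50 (0.061), and neither passed, while Hibadh stood at -0.64 (0.0089), Ivd at -0.69 (0.016) and Hsd17b10 at -0.80 (0.010). Against Soy-20%, it was -0.43 for Bckdha (edgeR adjusted p = 0.0045), -0.80 for Ivd (1.5e-04), -0.51 for Mccc1 (0.0036), -0.61 for Hibadh (2.7e-04) and -0.80 for Hsd17b10 (3.8e-04).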

How the results depend on the processing

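The count of members that passed between Cas-5% and Cas-20% stayed at 7 or 8 when single livers were left out. It was 2 when a log2 fold change of at least 1 was also asked for, where 420 of 12076 genes passed. That extra threshold gave 0 members for Soy-10% against Soy-20% + SAA (308 genes in all) and against Soy-20% (27). It also gave 0 for Cas-20% against Soy-20% + SAA (57 genes in all) and for Cas-5% against Soy-10% (105). The interaction gave 1 (285 genes in all), and the interaction with Soy-20% gave 0 (173). With the GC slope as a covariate, 1 member passed between Soy-10% and Soy-20% + SAA (379 genes in all) and 0 between Cas-20% and Soy-20% + SAA (5 genes in all), and 0, 0 and 3 other pathway genes passed in these comparisons and in the interaction. There Mccc1 stood at -0.12 and Hibadh at -0.0050 between Soy-10% and Soy-20% + SAA, against 0.20 and 0.77 in the main test. Without Soy-20% + SAA livers 3 to 6 the counts were 1, 0 and, for the interaction, 3 members (2.54%, 0.0240% and 2.27% of all genes), and 0, 0 and 3 other pathway genes (for these genes the setting was chosen after seeing the data), with Dbt at -0.053, Mccc1 at -0.092 and Hibadh at -0.036 between Soy-10% and Soy-20% + SAA. DESeq2 gave 1 member and 1 other pathway gene between Soy-20% and Soy-20% + SAA (885 genes in all). It gave 1 member between Cas-20% and Soy-20% (608 genes in all), and 4 other pathway genes between Cas-20% and Soy-20% + SAA. The count over all genes is not given here for that last comparison, or for the interaction with the GC slope as a covariate. Neither of these counts of other pathway genes can be set against it. In 1 fit over 30 livers, 2 members passed between Soy-20% and Soy-20% + SAA (14.3% of all genes), 4 between Cas-20% and Soy-20% + SAA (18.6%), and 3 in the interaction with Soy-20% (3.92%). Size factors of DESeq2 in edgeR and no filter on low counts moved no count of members by over 1.5 times. The other pathway genes were not counted in those settings. The cause was not tested for any of these changes.

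Leaving out single livers gave 3 to 6 members between Soy-10% and Soy-20% + SAA, 1 in each case between Soy-10% and Soy-20%, 5 to 7 in the interaction, 0 to 2 between Soy-20% and Soy-20% + SAA (2 without Soy-20% + SAA liver 1, 1 without liver 2), and 0 to 4 between Cas-20% and Soy-20% + SAA (4 without Soy-20% + SAA liver 1, 2 without liver 2, 0 without any other). Counts over all genes moved as well. Between Cas-20% and Soy-20% + SAA, 1817 genes passed without Soy-20% + SAA liver 1, 1247 without liver 2 and 9 to 79 without any other, against 291 with all livers. Between Soy-20% and Soy-20% + SAA, 1587 passed without liver 1 and 1118 without liver 2, against 1 with all livers. The log2 value of genes that did not pass changed sign for Bcat2 in the interaction (-0.063 to 0.094), Bckdhb in the interaction (-0.079 to 0.047) and Ppm1k between casein diets (-0.16 to 0.017).

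Same-numbered livers did not deviate together (lowest correlation -0.19 to -0.02, and at most 2 of 6 pairs over 0.1), so the numbers were not taken as pairs. With the replicate number as a block, 7 members passed between casein diets, 6 between Soy-10% and Soy-20% + SAA, 1 between Soy-10% and Soy-20%, 0 between Soy-20% and Soy-20% + SAA, 1 between Cas-20% and Soy-20% + SAA, 0 between Cas-20% and Soy-20%, 6 between Cas-5% and Soy-10%, 5 in each interaction and 8 over the 5 diets. The share of all genes that passed with the block is not given here, so these counts cannot be set against it. Depth limits Bcat2 and Bckdk most.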
